A study of Homo sapiens with 9 samples.

Results

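The DNA replication genes are 52 listed genes of origin licensing, replication forks, polymerases, nucleotide supply and chromatin assembly behind the fork. They were taken by gene symbol from array features, called probe sets, that name 1 gene alone. That left 47 genes of the 14207 tested, while MCM7, POLA1, PCNA, RPA3 and FEN1 lay only on probe sets that also name another gene. Expression was measured in ARPE-19, an established line of human retinal pigment epithelium cells, on 9 arrays. Vehicle, 100 µg/ml and 250 µg/ml of cigarette smoke condensate were represented by 3 arrays each. The condensate came as a stock of 40 mg/ml in DMSO with 6% nicotine. Cells of all 3 groups were grown to confluence in medium with 10% serum and then kept in medium with 1% albumin and no serum. How long cells were treated is not stated in the sources used here. Arrays are numbered 1 to 3 within a group, but no label ties the numbers to separate cultures. The p-values therefore reflect the spread between samples that may be technical replicates.

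Before a cell copies its DNA, the origin recognition complex, CDC6 and CDT1 load the MCM helicase on replication origins, a step called licensing. At the start of S phase the kinase CDC7 with DBF4, together with cyclin-dependent kinases, switches the helicase on by joining it to CDC45 and the GINS complex, and polymerases then copy both strands. Many of these genes are targets of E2F transcription factors, which the retinoblastoma protein restrains in resting cells, so their RNA is scarce in quiescent cells and abundant in cycling ones. Pigment epithelium does not divide in the adult eye, whereas the ARPE-19 line divides in serum and slows at confluence. RNA was measured in bulk, so fewer cells in S phase and less of these RNAs per cell cannot be told apart.

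Promoter windows are shown because an E2F-like sequence, which played no part in choosing the genes, was more frequent there than among all genes. It was not common to all of them. Each window in the RefSeq table of build GRCh38.p14 holds 300 bases, from 250 before a gene's start to 50 after it, and genes with several starts have several windows. The letters searched were TTTCCCGC, TTTGGCGC, TTTCGCGC and TTTGCCGC on both strands. No motif overlapped another in the windows printed. At least 1 window of the gene held one of them in 20 of 42 measured replication genes that have a window, or 47.6%. Among the genes tested the share was 5.55%, or 631 of 11372, and a gene with more windows has more chances to hold one. All 4 licensing genes held one, as did 4 of 5 MCM genes, 4 of 6 helicase activation genes and 1 of 6 origin recognition genes. The windows below belong to the 5 genes with a match whose log2 difference at 100 µg/ml was largest, printed 5′ to 3′ on the plus strand with the matched letters in capitals. A match on the other strand reads GCGCCAAA or GCGGGAAA there.
CDC6 promoter, chr17:40287629-40287928, plus strand: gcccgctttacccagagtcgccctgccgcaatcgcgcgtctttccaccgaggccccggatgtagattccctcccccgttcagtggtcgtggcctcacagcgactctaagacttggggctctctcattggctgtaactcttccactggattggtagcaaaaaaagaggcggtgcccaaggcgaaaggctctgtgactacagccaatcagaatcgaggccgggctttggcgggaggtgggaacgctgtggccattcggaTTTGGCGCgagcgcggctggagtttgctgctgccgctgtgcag
DTL promoter, chr1:212035498-212035797, plus strand: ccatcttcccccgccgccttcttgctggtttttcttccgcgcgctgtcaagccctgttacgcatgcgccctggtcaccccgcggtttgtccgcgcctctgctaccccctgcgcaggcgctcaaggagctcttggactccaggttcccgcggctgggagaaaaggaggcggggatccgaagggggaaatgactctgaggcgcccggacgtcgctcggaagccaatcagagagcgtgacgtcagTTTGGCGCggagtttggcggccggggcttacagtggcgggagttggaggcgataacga
MCM8 promoter, chr20:5950402-5950701, plus strand: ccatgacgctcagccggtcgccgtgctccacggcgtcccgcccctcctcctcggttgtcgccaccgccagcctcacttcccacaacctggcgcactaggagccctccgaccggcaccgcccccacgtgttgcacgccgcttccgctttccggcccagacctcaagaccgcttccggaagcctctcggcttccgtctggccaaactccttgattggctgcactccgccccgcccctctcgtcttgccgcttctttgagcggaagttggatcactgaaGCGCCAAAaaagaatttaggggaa
GINS1 promoter, chr20:25407423-25407722, plus strand: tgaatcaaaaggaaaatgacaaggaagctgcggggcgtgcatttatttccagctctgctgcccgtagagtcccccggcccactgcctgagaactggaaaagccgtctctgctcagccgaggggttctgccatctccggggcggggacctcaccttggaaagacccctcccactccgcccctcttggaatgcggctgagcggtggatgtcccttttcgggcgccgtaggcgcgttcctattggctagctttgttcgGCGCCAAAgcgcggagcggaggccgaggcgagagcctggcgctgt
CDC7 promoter, chr1:91500862-91501161, plus strand: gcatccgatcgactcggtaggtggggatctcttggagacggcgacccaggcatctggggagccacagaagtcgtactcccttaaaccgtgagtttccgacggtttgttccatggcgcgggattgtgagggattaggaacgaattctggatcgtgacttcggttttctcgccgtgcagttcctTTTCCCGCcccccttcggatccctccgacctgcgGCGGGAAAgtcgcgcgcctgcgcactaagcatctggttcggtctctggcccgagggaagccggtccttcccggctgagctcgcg
Counting the first base of the gene as 0, the match began at base 7 in CDC6, -8 in DTL, 26 in MCM8 and 5 in GINS1. CDC7 held matches at -68 and -34, facing opposite ways. The 20 genes with a match had a median difference of 0.89 log2 units between 100 µg/ml and vehicle, against 0.80 in the 22 genes without one. A match describes these letters and is not a bound site, and no test was made of either figure.

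The deposited values are log2 signals, so a difference of 1 is a 2-fold difference. Array medians lay between 4.42 and 4.59, and replicates of a group correlated at 0.970 to 0.992. ARPE-19 kept some pigment epithelium genes, with OTX2 at 8.38 to 9.28 and KRT8 at 10.29 to 11.49, while RPE65, BEST1 and TTR lay below the lower quartile on every array. These 3 are among 11 measured markers of the lineage, whose summed level was 58.2 to 61.3 with vehicle, at 100 µg/ml 56.0 to 57.6 and at 250 µg/ml 55.6 to 58.3. Vehicle array 2 stood apart for COL1A1, a fibrillar collagen gene, at 6.55 against 3.50 to 3.75 on the other 8 arrays. Log2 signals of 6 mesenchymal markers added up to 31.1 to 36.0 with vehicle. At 100 µg/ml the sums were 30.6 to 32.2 and at 250 µg/ml 30.3 to 31.7. Of these markers VIM read 10.76 to 11.57 and PDGFRB 6.17 to 8.41 over the 9 arrays. COL1A2 and COL3A1 read 3.26 to 3.76, and THY1 lay below the lower quartile throughout. Of 5 endothelial markers, 4 lay below that quartile on every array. The part of other cell types in the results below was not tested.

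Replication genes were higher in the mean of cells given 100 µg/ml condensate than in vehicle cells for 47 of 47 genes, where 40.8% of all genes were higher. Their median difference was 0.89 log2 units, against -0.05 over all genes. At least 2-fold higher were 18 of the 47, against 177 of all 14207 genes. The genes furthest up were CDC6, DTL, RRM2, MCM10, MCM8 and GINS1, with differences of 1.79 to 1.44. With limma and Benjamini-Hochberg adjustment over all genes, 0 of 47 passed an adjusted p under 0.05, and 0.0633% of all genes did. An unadjusted p under 0.05 was reached by 28 of the 47, all higher, and by 14.6% of all genes, of which 994 were higher and 1087 lower. Every array at 100 µg/ml lay above every vehicle array in 13 of 47 genes, against 6.41% of all genes. These were ORC5, CDT1, DTL, MCM10, DBF4, GINS1, GINS4, POLA2, POLD1, POLD2, POLD3, RFC2 and RRM2. The 47 genes tended to vary together over the arrays. The correlation of each gene with the mean of the others had a median of 0.9 (range -0.08 to 0.98). Between pairs of genes, as deviations from the group means, the median was 0.62 (range -0.83 to 0.99). Counts of these genes, here and below, are therefore not counts of separate observations.

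The same genes lay closer to vehicle at 250 µg/ml. The mean was higher in 43 and lower in 4 of 47, against 42.7% of all genes higher, with a median difference of 0.49 log2 units (all genes -0.04). Again 0 passed the adjusted threshold, where 0.549% of all genes did. At an unadjusted p under 0.05, 10 were higher and 0 lower, against 8.74% of all genes higher. All arrays at 250 µg/ml lay above all vehicle arrays in 9 genes, against 8.61% of all genes, and below them in POLD1, against 14.3%. Both comparisons use the same 3 vehicle arrays, so they are not separate evidence.

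**Figure D1:**
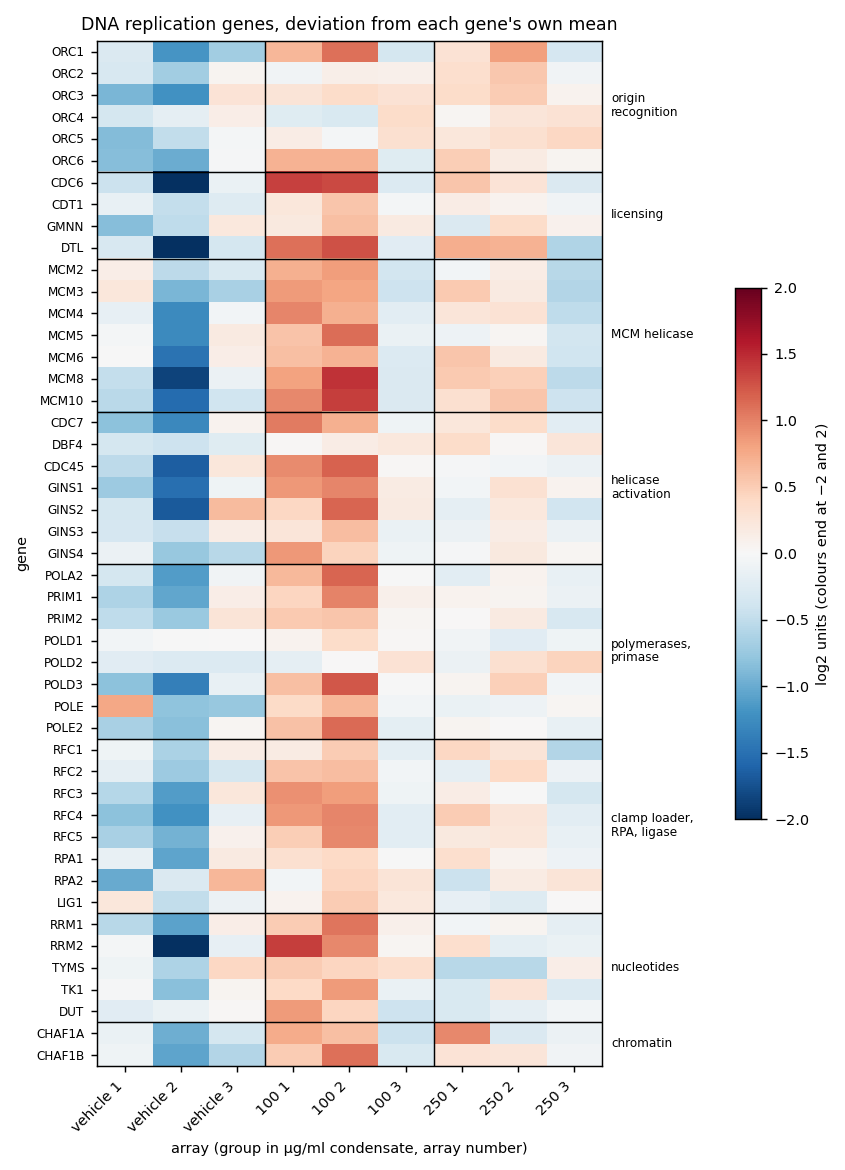
Log2 signal of the 47 genes (rows, by role) on the 9 arrays (columns, by dose in µg/ml and array number), coloured by deviation from each gene's mean over the arrays. Vehicle array 2 is low in nearly every row, arrays 1 and 2 at 100 µg/ml are high, and the arrays numbered 3 sit near the mean in every group.

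The spread between arrays of 1 group was large beside these differences. Vehicle array 2 held the lowest value of 40 of the 47 genes. Array 2 at 100 µg/ml held the highest of 29 and array 1 at that dose that of 9. The mean deviation of the 47 genes from their own averages was -0.35, -0.99 and -0.05 on vehicle arrays 1, 2 and 3. At 100 µg/ml it was 0.54, 0.74 and -0.05, and at 250 µg/ml 0.13, 0.18 and -0.14. The arrays numbered 3 thus lay close together across the groups, and array 3 of each dose did not lie above array 3 of vehicle. Of the 47 genes, 39 and 44 lay above every vehicle array on arrays 1 and 2 at 100 µg/ml but 16 on array 3. The counts were 27, 28 and 12 at 250 µg/ml. The shares of all genes were 27.0%, 20.2% and 18.6% at 100 µg/ml and 25.6%, 22.1% and 20.7% at 250 µg/ml.

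Leaving out single arrays moved the size of the median difference and not its direction, while some single genes changed sign. At 250 µg/ml without vehicle array 2, 37 means were higher and 10 lower, against 43 and 4 with all arrays. Without vehicle array 2 the median difference was 0.61 at 100 µg/ml and 0.26 at 250 µg/ml, with 16 and 2 genes higher at an unadjusted p under 0.05 (5.64% and 7.37% of all genes). Without the arrays numbered 3 of both doses it was 1.15 and 0.56. In that setting 39 genes at 100 µg/ml and 22 at 250 µg/ml lay above all vehicle arrays, against 13.2% and 15.5% of all genes. Without vehicle array 3, ORC3 passed the adjusted threshold at 100 µg/ml, where 0.401% of all genes did, and ORC3 and ORC5 passed at 250 µg/ml, where 2.08% did.

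**Figure D2:**
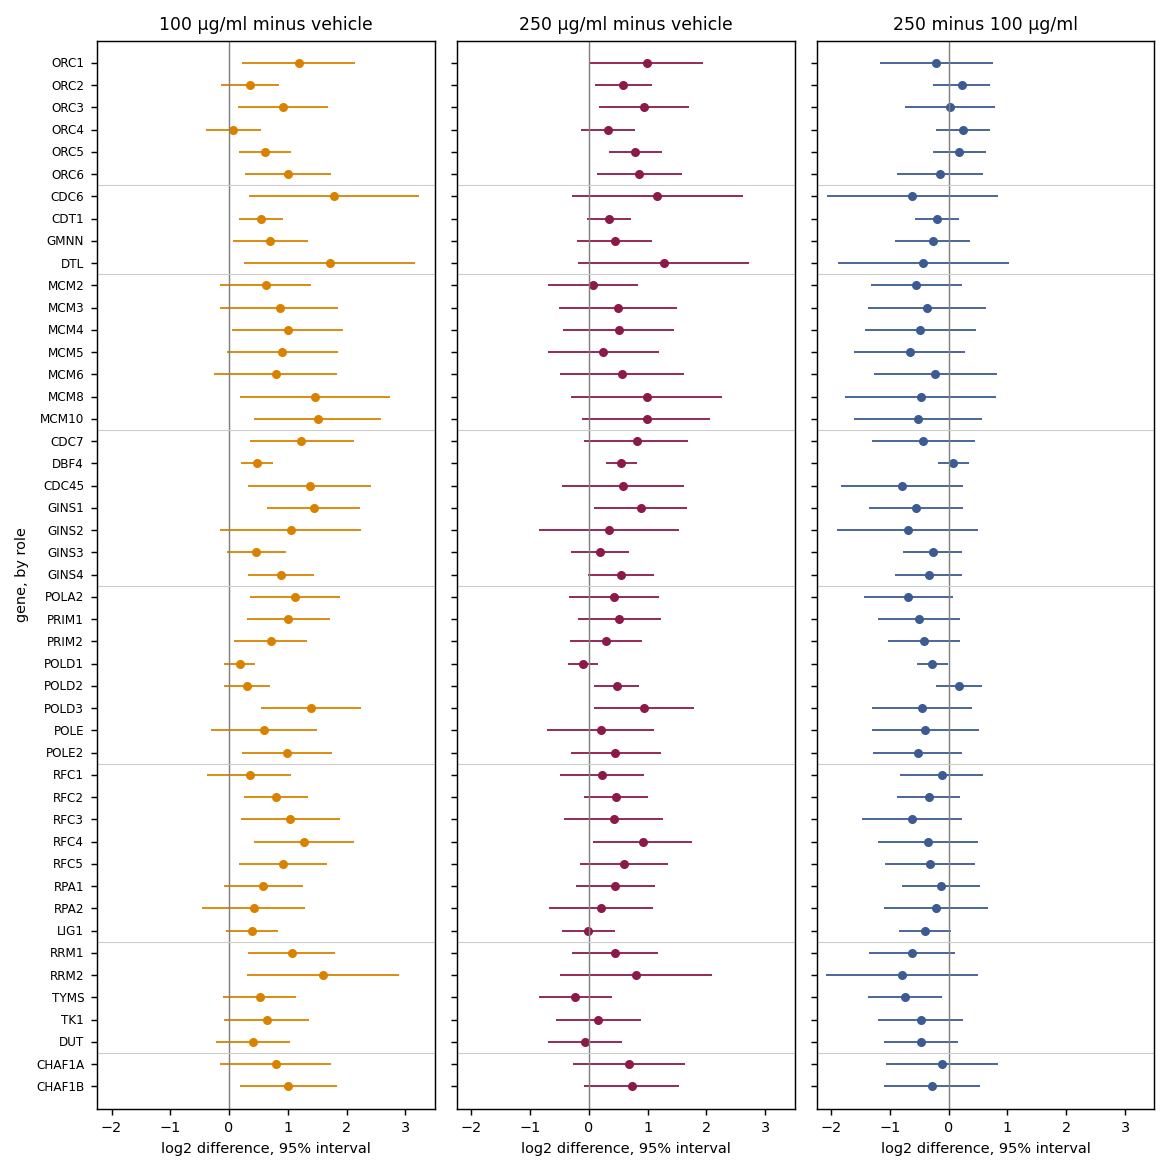
Log2 difference of each gene (point) with its 95% interval (line) from limma on all 9 arrays, for 100 µg/ml minus vehicle, 250 µg/ml minus vehicle and 250 minus 100 µg/ml. All 47 points lie right of 0 in the first panel, 43 in the second and 6 in the third, and many intervals cross 0.

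The origin recognition complex, whose 6 subunits mark the origins, lay about as high at 250 as at 100 µg/ml, a pattern not tested against the other roles. Its median difference from vehicle was 0.76 at 100 µg/ml and 0.83 at 250 µg/ml, with all 6 means higher at both doses. ORC1, the subunit whose protein is made and destroyed with the cell cycle, had signals of 4.03, 3.14 and 3.63 on vehicle arrays 1, 2 and 3, 4.98, 5.42 and 3.97 at 100 µg/ml, and 4.62, 5.14 and 3.98 at 250 µg/ml. Only array 3 of each dose fell within the vehicle range. The difference was 1.19 ± 0.42 at 100 µg/ml and 0.98 ± 0.42 at 250 µg/ml (SE, n = 3 per group, limma adjusted p = 0.27 and 0.29).

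ORC4, a subunit of the stable core, showed the smallest difference of the 6. It read 6.16, 6.32 and 6.64 with vehicle, 6.26, 6.20 and 6.88 at 100 µg/ml and 6.55, 6.74 and 6.80 at 250 µg/ml. Vehicle and 100 µg/ml overlapped, with a difference of 0.07 (95% interval -0.39 to 0.54). ORC5, another core subunit, read 5.65, 6.02 and 6.47 with vehicle, 6.67, 6.48 and 6.83 at 100 µg/ml and 6.74, 6.84 and 6.93 at 250 µg/ml. All treated arrays lay above all vehicle arrays, by 0.79 ± 0.20 at 250 µg/ml (adjusted p = 0.10). In ORC3, a further core subunit, 1 vehicle array lay among the treated ones, with 7.67 to 8.12 on the 6 treated arrays and 6.70, 6.39 and 7.88 on the vehicle ones. ORC6, the small subunit, had differences of 1.00 and 0.86 at 100 and 250 µg/ml, and ORC2 of 0.36 and 0.58.

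The licensing genes held the gene with the largest difference of the 47. CDC6, which loads the helicase on origins, read 7.13, 5.19 and 7.43 with vehicle, 8.93, 8.88 and 7.30 at 100 µg/ml and 8.12, 7.84 and 7.28 at 250 µg/ml. Arrays 1 and 2 of each dose lay above every vehicle array, and array 3 of each dose lay inside the vehicle range. The difference at 100 µg/ml was 1.79 ± 0.64 log2 units, or 3.45-fold, with an adjusted p of 0.27. It was 1.16 ± 0.64 at 250 µg/ml, with an interval of -0.29 to 2.62.

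CDT1, the partner of CDC6 in loading, varied much less. It read 5.15, 4.82 and 5.04 with vehicle, 5.53, 5.85 and 5.25 at 100 µg/ml and 5.44, 5.36 and 5.23 at 250 µg/ml. No treated array reached down to a vehicle array, though differences were small, at 0.54 ± 0.16 and 0.34 ± 0.16 (adjusted p = 0.22 and 0.34). GMNN encodes geminin, the inhibitor that keeps CDT1 from loading helicase again in S phase. Its signal was 5.25, 5.59 and 6.31 with vehicle, 6.29, 6.69 and 6.27 at 100 µg/ml and 5.81, 6.47 and 6.18 at 250 µg/ml. Vehicle array 3 reached the treated arrays, and the difference at 100 µg/ml was 0.70 ± 0.28. DTL, the substrate receptor of the ubiquitin ligase that removes CDT1 in S phase, read 7.62, 5.65 and 7.60 with vehicle, 9.05, 9.22 and 7.72 at 100 µg/ml and 8.67, 8.65 and 7.35 at 250 µg/ml. So both the loaders and the genes that limit them were higher in the treated means, by a median of 1.20 log2 units at 100 µg/ml and 0.80 at 250 µg/ml.

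**Figure D3:**
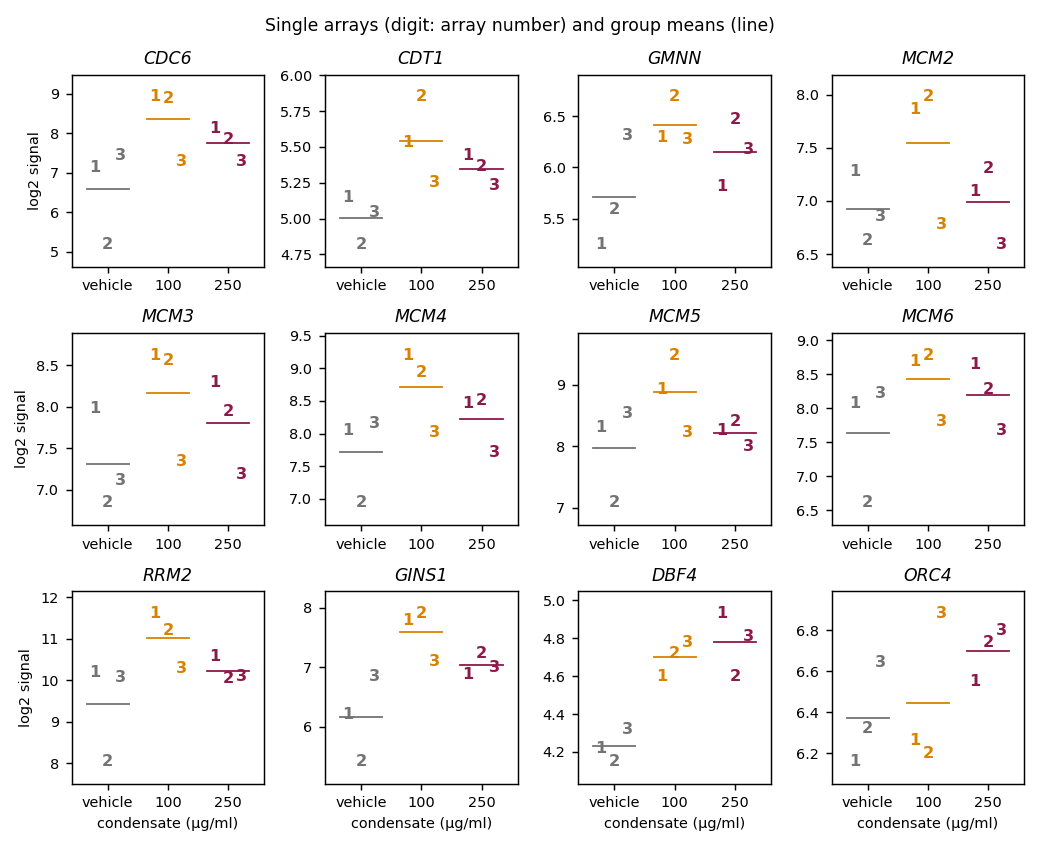
Log2 signal (vertical axis, scaled per gene) of 12 replication genes on single arrays, by condensate dose in µg/ml; each digit is an array number and each line a group mean. In CDC6, MCM2 to MCM4 and RRM2 the arrays numbered 3 of all 3 groups lie close together while arrays 1 and 2 are spread. In MCM5 and MCM6 the arrays numbered 2 are the most spread, and in DBF4 all treated arrays lie above vehicle.

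The MCM helicase subunits MCM2 to MCM6 were nearer to vehicle at 250 µg/ml than at 100 µg/ml. MCM2 had signals of 7.28, 6.63 and 6.85 with vehicle, 7.86, 7.98 and 6.78 at 100 µg/ml and 7.09, 7.30 and 6.59 at 250 µg/ml. MCM3 had 7.98, 6.84 and 7.11 with vehicle, 8.62, 8.55 and 7.34 at 100 µg/ml and 8.29, 7.94 and 7.18 at 250 µg/ml. In both genes arrays 1 and 2 at 100 µg/ml lay above every vehicle array and array 3 did not.

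MCM4 read 8.05, 6.94 and 8.16 with vehicle, 9.20, 8.93 and 8.01 at 100 µg/ml and 8.46, 8.51 and 7.71 at 250 µg/ml. MCM5 read 8.31, 7.08 and 8.53 with vehicle, 8.92, 9.48 and 8.23 at 100 µg/ml and 8.26, 8.40 and 7.99 at 250 µg/ml. MCM6 read 8.07, 6.61 and 8.22 with vehicle, 8.69, 8.78 and 7.81 at 100 µg/ml and 8.64, 8.27 and 7.68 at 250 µg/ml. These 3 subunits shared a single low array, vehicle array 2, more than 1 log2 unit under the next lowest array in MCM6. Array 3 of each dose lay under vehicle arrays 1 and 3.

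Over the 5 subunits differences at 100 µg/ml ran from 0.62 to 1.00, and only that of MCM4 had an interval above 0 (0.05 to 1.94). At 250 µg/ml they ran from 0.07 for MCM2 to 0.56 for MCM6, all with intervals across 0. MCM8, a relative of the helicase that works in recombination repair, had the wider difference of 1.46 ± 0.56 at 100 µg/ml. MCM10, which helps switch the loaded helicase on, read 4.97, 3.97 and 5.12 with vehicle, 6.47, 6.90 and 5.22 at 100 µg/ml and 5.83, 6.07 and 5.10 at 250 µg/ml. Its treated arrays at 100 µg/ml all lay above vehicle, by 1.51 ± 0.48 (adjusted p = 0.24), though array 3 did so narrowly.

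Genes that activate the helicase held the members with the lowest p-values. DBF4, the regulatory subunit that the CDC7 kinase needs, read 4.22, 4.15 and 4.32 with vehicle, 4.60, 4.72 and 4.78 at 100 µg/ml and 4.93, 4.60 and 4.81 at 250 µg/ml. All 6 treated arrays, those numbered 3 included, lay above all vehicle arrays. The difference was 0.47 ± 0.12 at 100 µg/ml and 0.55 ± 0.12 at 250 µg/ml. The limma p of 0.0012 at 250 µg/ml was the lowest of the 47 genes and came to 0.075 after adjustment. DBF4 was a dim gene, whose vehicle signals lay below the array medians of 4.42 to 4.59. CDC7 itself differed from vehicle by 1.23 ± 0.39 at 100 µg/ml and by 0.81 ± 0.39 at 250 µg/ml, with vehicle array 3 inside the treated range.

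GINS1 to GINS4 form the complex that, with CDC45, completes the active helicase. GINS1 read 6.21, 5.42 and 6.85 with vehicle, 7.79, 7.90 and 7.10 at 100 µg/ml and 6.87, 7.23 and 7.0 at 250 µg/ml. Treated arrays lay above vehicle at both doses, narrowly so at 250 µg/ml, and the difference at 100 µg/ml was 1.44 ± 0.35 (adjusted p = 0.20). GINS3 had the smallest difference of the role, with signals of 5.43, 5.31 and 5.91 with vehicle, 6.01, 6.38 and 5.64 at 100 µg/ml and 5.65, 5.91 and 5.65 at 250 µg/ml. Its vehicle array 3 lay above 1 of 3 arrays at 100 µg/ml, and the differences were 0.46 and 0.19. CDC45 had 6.16, 5.04 and 6.92 with vehicle, 7.64, 7.87 and 6.72 at 100 µg/ml and 6.66, 6.63 and 6.58 at 250 µg/ml, where the arrays lay close together inside the vehicle range. GINS2 and GINS4 had differences of 1.05 ± 0.52 and 0.89 ± 0.25 at 100 µg/ml.

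The polymerase and primase genes ranged from the 0.18 of POLD1 to the 1.40 of POLD3 at 100 µg/ml. POLD3, an accessory subunit of polymerase delta, read 5.96, 5.41 and 6.64 with vehicle, 7.39, 8.03 and 6.78 at 100 µg/ml and 6.84, 7.25 and 6.73 at 250 µg/ml. All treated arrays exceeded vehicle, with differences of 1.40 ± 0.37 and 0.94 ± 0.37 (adjusted p = 0.21 and 0.26). POLD1, the catalytic subunit of the same enzyme, read 5.13, 5.18 and 5.19 with vehicle, 5.26, 5.55 and 5.21 at 100 µg/ml and 5.12, 4.96 and 5.11 at 250 µg/ml. It was thus just above vehicle on every array at 100 µg/ml and just below on every array at 250 µg/ml, by 0.18 and -0.10, neither with an interval clear of 0. POLD2 differed by 0.30 and 0.47 at 100 and 250 µg/ml, and was the polymerase gene that was higher at 250 than at 100 µg/ml.

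The polymerase alpha subunit gene POLA2 had a difference of 1.12 ± 0.33 at 100 µg/ml, and the primase genes PRIM1 and PRIM2, which make the RNA primers, had 1.01 ± 0.31 and 0.71 ± 0.27. Of polymerase epsilon, POLE2 had 0.98 ± 0.33. The catalytic gene POLE had 0.59 ± 0.40, with all 6 treated arrays (5.24 to 6.05) below a vehicle array of 6.16. These 5 genes lay 0.20 to 0.51 above vehicle at 250 µg/ml with every interval across 0.

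The clamp loader, made of RFC1 to RFC5, places the sliding clamp on primed DNA. RFC4 read 6.77, 6.37 and 7.42 with vehicle, 8.45, 8.56 and 7.38 at 100 µg/ml and 8.09, 7.83 and 7.38 at 250 µg/ml. Array 3 of all 3 groups read nearly alike, while arrays 1 and 2 at both doses lay above vehicle. The difference was 1.28 ± 0.37 at 100 µg/ml and 0.92 ± 0.37 at 250 µg/ml (adjusted p = 0.22 and 0.27). RFC1, the large subunit, read 7.96, 7.40 and 8.19 with vehicle, 8.20, 8.55 and 7.84 at 100 µg/ml and 8.46, 8.30 and 7.46 at 250 µg/ml. Groups overlapped, and the difference at 100 µg/ml was 0.35 with an interval of -0.37 to 1.06.

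RFC2, RFC3 and RFC5 had differences of 0.80, 1.04 and 0.92 at 100 µg/ml, against 0.46, 0.42 and 0.60 at 250 µg/ml. RPA1, the large subunit of the protein that coats single-stranded DNA, had 0.58 ± 0.29 at 100 µg/ml, and RPA2 had 0.42 ± 0.39. RPA2 ran from 3.95 to 5.63 within the vehicle group alone, a range that held all 6 treated arrays. LIG1, the ligase that seals Okazaki fragments, differed from vehicle by 0.39 ± 0.19 at 100 µg/ml and by -0.01 ± 0.19 at 250 µg/ml.

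The nucleotide supply genes had the lowest median of the roles at 250 µg/ml, with a median difference of 0.16 and 2 of 5 means lower, against 0.64 and 0 of 5 lower at 100 µg/ml. RRM2, the subunit of ribonucleotide reductase that is made in S phase, read 10.19, 8.05 and 10.07 with vehicle, 11.61, 11.20 and 10.28 at 100 µg/ml and 10.57, 10.04 and 10.10 at 250 µg/ml. At 100 µg/ml every array lay above vehicle, array 3 narrowly, and at 250 µg/ml the groups overlapped. The difference was 1.60 ± 0.57, or 3.02-fold, at 100 µg/ml and 0.80 ± 0.57 at 250 µg/ml (adjusted p = 0.27 and 0.50). Without vehicle array 2, which read 2 log2 units under its replicates, RRM2 differed by 0.90 at 100 µg/ml and 0.11 at 250 µg/ml.

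RRM1, the large subunit of the enzyme, had 8.43, 7.91 and 9.11 with vehicle, 9.49, 10.06 and 9.09 at 100 µg/ml and 8.93, 9.04 and 8.80 at 250 µg/ml, all 3 of the last inside the vehicle range. TYMS, thymidylate synthase, had 8.56, 8.02 and 9.06 with vehicle, 9.15, 9.07 and 8.98 at 100 µg/ml and 8.09, 8.09 and 8.77 at 250 µg/ml. The doses were separated here, since every array at 250 µg/ml lay below every array at 100 µg/ml. TK1, thymidine kinase, differed from vehicle by 0.64 ± 0.31 at 100 µg/ml and 0.16 ± 0.31 at 250 µg/ml.

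DUT, which removes dUTP from the pool, read 4.05, 4.15 and 4.30 with vehicle, 5.13, 4.71 and 3.86 at 100 µg/ml and 3.98, 4.10 and 4.22 at 250 µg/ml. Array 3 at 100 µg/ml lay below every vehicle array and arrays 1 and 2 above, so the difference of 0.40 had an interval of -0.23 to 1.03. CHAF1A and CHAF1B encode subunits of the factor that places histones on new DNA. CHAF1A read 5.49, 4.65 and 5.27 with vehicle, 6.36, 6.22 and 5.19 at 100 µg/ml and 6.59, 5.34 and 5.51 at 250 µg/ml. Its single high array at 250 µg/ml was array 1, and the groups overlapped. CHAF1B read 5.84, 4.86 and 5.33 with vehicle, 6.43, 7.02 and 5.61 at 100 µg/ml and 6.20, 6.16 and 5.85 at 250 µg/ml. At 250 µg/ml its lowest array barely exceeded the highest vehicle array, and the differences were 1.01 ± 0.36 and 0.73 ± 0.36.

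Set directly against each other, the doses differed downward. Replication genes were lower at 250 than at 100 µg/ml in the mean for 41 of 47 genes, against 45.6% of all genes, with a median difference of -0.40 log2 units (all genes 0.01). Limma called 0 of 47 at an adjusted p under 0.05, and 0 of 14207 genes in all. At an unadjusted p under 0.05, 2 genes were lower, TYMS and POLD1, against 0.859% of all genes. TYMS lay lower by 0.75 log2 units (difference -0.75, interval -1.37 to -0.12) and POLD1 by 0.28 (difference -0.28, interval -0.54 to -0.01), both with an adjusted p of 1.0. Every array at 250 µg/ml lay below every array at 100 µg/ml in 6 genes, CDC45, PRIM1, POLD1, LIG1, RRM1 and TYMS, against 2.86% of all genes. The 6 genes with a higher mean at 250 µg/ml were ORC2, ORC3, ORC4, ORC5, DBF4 and POLD2.

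Same-numbered arrays of both doses varied together over all genes, with correlations of 0.60, 0.44 and 0.68 between their deviations from the group means. Within array numbers 1, 2 and 3 the median difference was -0.38, -0.61 and -0.10, with 38, 42 and 34 of 47 genes lower. All 3 numbers put 29 genes lower at 250 µg/ml, against 13.6% of all genes. With the array number as a block on the 6 arrays of both doses, 25 genes were lower at an unadjusted p under 0.05 (5.40% of all genes), and 1 with the block on all 9 arrays (1.44%). Both blocked fits left 0 past the adjusted threshold. Without the arrays numbered 3 the median was -0.54. In that setting both arrays at 250 µg/ml lay below both at 100 µg/ml in 35 genes, against 18.8% of all genes, and above them in ORC2, ORC3, ORC4 and ORC5, against 19.1%. Without array 2 at 100 µg/ml it was -0.18.

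**Figure D4:**
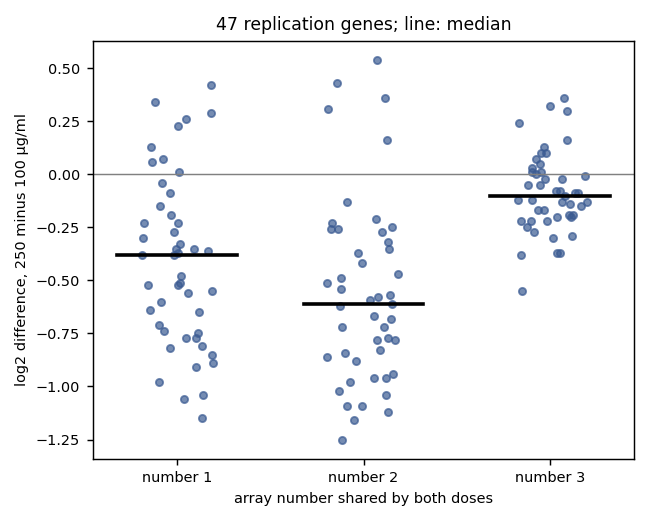
Log2 difference between 250 and 100 µg/ml for each of the 47 genes (points) within the arrays numbered 1, 2 and 3, with the median as a line. Medians are -0.38, -0.61 and -0.10, so the arrays numbered 3 show the smallest difference.

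Genes of neighbouring pathways were described in the same way. For comparison, 40.8% of all genes were higher in the mean at 100 µg/ml, and 994 of 14207 were higher at an unadjusted p under 0.05. Of 20 measured other replisome and initiation factors, 18 were higher in the mean at 100 µg/ml, 10 of them at an unadjusted p under 0.05, with a median difference of 0.48. WDHD1, a scaffold between helicase and polymerase alpha, differed by 1.87 and the fork checkpoint mediator CLSPN by 1.48, while the small polymerase subunit genes POLE4 and POLD4 differed by -0.40 and -0.64. Of 12 replication stress genes all 12 were higher, 7 at an unadjusted p under 0.05 (median 0.94), EXO1, an exonuclease of repair, among the most at 1.77 and the checkpoint genes ETAA1 and RAD17 the least at 0.18 and 0.05. Of 12 genes of S-phase chromatin and histone supply 12 were higher, 7 at that p (median 0.75). The remodeller HELLS stood at 1.46 and ATAD2 at 1.28, the histone variant H2AZ1 at 0.37 and the histone mRNA binder SLBP at 0.21.

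Other nucleotide synthesis genes stood closer to vehicle at 100 µg/ml, with a median of 0.30 and 13 of 16 higher (40.8% of all genes), 4 at an unadjusted p under 0.05 (994 of all 14207 genes). The salvage kinase gene DCK differed by 1.02 and CTPS1 by 0.85, and the purine synthesis genes IMPDH2 and ADSL by -0.12 and -0.19. None of these lists held a gene past the adjusted threshold in any of the 3 comparisons. The medians at 250 µg/ml were 0.20 for replisome factors, 0.49 for stress genes, 0.48 for S-phase chromatin and 0.21 for nucleotide synthesis.

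E2F factors, pocket proteins and cyclins of the passage into S phase numbered 21 measured genes. Of these, 18 were higher in the mean at 100 µg/ml, against 40.8% of all genes, and 17 at 250 µg/ml, against 42.7%. The list had a median difference of 0.23 at 100 µg/ml and one of 0.36 at 250 µg/ml. CCNE2, cyclin E2, which drives entry into S phase, read 4.43, 3.76 and 5.20 with vehicle, 7.20, 7.45 and 5.17 at 100 µg/ml and 6.15, 5.46 and 4.72 at 250 µg/ml. Its difference of 2.14 ± 0.64 at 100 µg/ml was above that of each of the 47 replication genes (adjusted p = 0.22), and array 3 again lay within the vehicle range. E2F7, a repressor of the E2F family, lay above vehicle on every treated array, by 1.64 ± 0.48 and 1.19 ± 0.48 (adjusted p = 0.22 and 0.27). E2F5 and CCND2 had the smallest differences, -0.12 and -0.38 at 100 µg/ml. CCND2 lay below the lower quartile on every array but vehicle array 2.

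The CDK inhibitors, which hold cells out of S phase, had median differences near those of all genes. Of 6 measured, 2 were higher and 4 lower in the mean at 100 µg/ml, where 40.8% of all genes were higher. At 250 µg/ml 1 was higher and 5 lower, where 42.7% of all genes were higher. The median difference was -0.09 at 100 µg/ml (all genes -0.05) and -0.16 at 250 µg/ml (all genes -0.04). CDKN1A, an inhibitor of the kinases that work with cyclins E and A, read 6.93, 7.30 and 7.47 with vehicle, 7.81, 7.72 and 7.93 at 100 µg/ml and 7.12, 7.74 and 8.10 at 250 µg/ml. At 100 µg/ml all arrays lay above vehicle, by 0.59 ± 0.24 (adjusted p = 0.32), and CDKN1B differed by 0.13. CDKN2B, an inhibitor of the cyclin D kinases, differed by -0.55 at 100 µg/ml and -0.64 at 250 µg/ml. CDKN2D differed by -0.14 and -0.41, neither gene past the adjusted threshold. Every array at 250 µg/ml lay below every vehicle array in these 2 of 6 genes, against 14.3% of all genes. Both were lower there at an unadjusted limma p under 0.05, as were 1123 of all 14207 genes.

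Mitosis genes were higher at 100 µg/ml in 18 of 18 measured, 14 at an unadjusted p under 0.05, with a median of 0.91. Of all genes 40.8% were higher, 994 of 14207 of them at that p. Every array lay above vehicle in 12 mitosis genes, against 6.41% of all genes. MAD2L1, of the spindle checkpoint, differed by 1.72 ± 0.43 and the spindle motor gene KIF11 by 1.64 ± 0.39 (adjusted p = 0.20 and 0.19), and CENPE and BIRC5 by 0.38 and 0.34. The median at 250 µg/ml was 0.56. On array 3 at 100 µg/ml the mitosis list stood at a mean deviation of 0.33, while the replication list there stood at -0.05. On vehicle array 3 they stood at -0.21 and -0.05. Array 3 at 250 µg/ml read -0.08 for mitosis and -0.14 for replication genes.

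**Figure D5:**
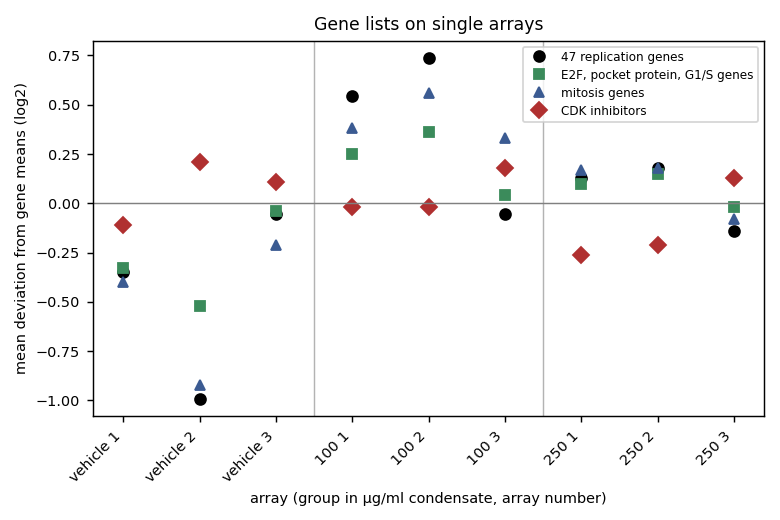
Mean deviation (log2) of 4 gene lists from each gene's average over the 9 arrays, by array. Replication, mitosis and E2F lists are lowest on vehicle array 2 and highest on array 2 at 100 µg/ml, and CDK inhibitors are highest on vehicle array 2 and lowest on arrays 1 and 2 at 250 µg/ml.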

How the data were processed

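Total RNA of 9 ARPE-19 samples was hybridised as sense-strand targets to Affymetrix exon arrays, per the labels' protocols. The deposited values are log2 summaries, 1 per probe set. RMA, Partek and build hg18 appear in the submitters' processing notes, while versions, settings and any filter are not stated in the sources used here. RMA compresses the folds of dim genes and hides changes in total RNA per cell. The number of arrays limits the precision.

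Of 17629 probe sets, 14378 named 1 gene, 2405 several and 846 none. Symbols were updated by gene number through the RefSeq table of GRCh38.p14, which lacked 28 of these probe sets' gene numbers. The probe set with the highest mean was used for 169 genes with more than 1, which left 14207 genes. None of the 47 replication genes had more than 1 probe set of its own.

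All 9 arrays were fitted with 1 mean per group in limma 3.58.1 under R 4.3.3, with Benjamini-Hochberg adjustment over all genes. The fit had first been tested on simulated data with independent noise for each gene. That simulation held no shift shared by the genes of an array, so it cannot speak to the shared spread seen here. The replication genes, pathway lists, marker lists and tests were chosen with earlier results of these data known. By rule, values on every array were given for MCM2 to MCM6, RRM2, CDC6, CDT1 and GMNN and for the largest and smallest difference at 100 µg/ml in each role. Further members, and CCNE2 and CDKN1A, were given in full after their values were seen. Each pathway list was named by its 2 largest and 2 smallest differences, and the result of 1 gene that this rule takes is not reported here.

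Pairing by array number was checked from deviations from the group means. Same-numbered arrays of both doses correlated at 0.44 to 0.68, so the numbers were taken to pair the doses, which rests on the values and on no label. Between a dose and vehicle the correlations ran from -0.14 to 0.26, and no pairing was assumed there. Alternatives were other scalings, a filter on dim genes, array weights, shared probe sets, a replicate block, and leaving out single arrays or those numbered 3.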

Additional observations from a re-analysis of the deposited data

How the results depend on the processing

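The count of replication genes past the adjusted threshold was 0 in each comparison under every alternative but 1. Without vehicle array 3 it was 1 at 100 µg/ml and 2 at 250 µg/ml, where 57 and 296 of 14207 genes passed, so with single arrays left out it ran from 0 to 1 and from 0 to 2, and it stayed at 0 between the doses. The median difference ran from 0.61 to 1.15 at 100 µg/ml, from 0.26 to 0.73 at 250 µg/ml and from -0.66 to -0.18 between the doses. Counts at an unadjusted p under 0.05 moved more, from 8 to 41, from 2 to 18 and from 0 to 31. The 41 at 100 µg/ml and the 31 between the doses, 29 of them lower, came with array weights (26.3% and 16.0% of all genes at that p), and the 0 without array 2 at 100 µg/ml or without array 1 or 2 at 250 µg/ml (0.929% to 1.60%). At 100 µg/ml the lowest was 8 with the replicate block on 6 arrays (1565 of all genes). The count was 16 without vehicle array 2 (10.8% of all genes at that p). Without array 1 or array 2 at that dose it was 12 (12.9%) or 14 (7.76%). At 250 µg/ml there were 6 after quantile normalization (15.9%), 2 without vehicle array 2 (13.5%) and 18 without vehicle array 3 (18.6%). Without array 1 or array 2 at that dose there were 4 (11.1%) or 3 (10.2%). Over all genes the calls ran from 0 to 73 at 100 µg/ml, against 9 as reported, and from 1 to 296 at 250 µg/ml, against 78. With the replicate block, 0 or 3 genes were called at 100 µg/ml and 1 or 122 at 250 µg/ml (6 or 9 arrays), and no replication gene.

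Of 1191 values of 21 named genes under 19 alternatives, 1171 kept their sign and their side of the threshold and 20 changed sign, none of them a difference that had passed. The causes were not tested. For ORC4 at 100 µg/ml the difference was -0.14 with array weights, -0.03 without vehicle array 1, -0.14 without array 3 at 100 µg/ml and -0.14 without the arrays numbered 3. At 250 µg/ml MCM2 gave -0.02 after quantile normalization and -0.08 without vehicle array 2 or array 2 at that dose, MCM5 gave -0.20 without vehicle array 2 and RFC1 -0.00. Between the doses, without array 2 at 100 µg/ml ORC1 gave 0.10, RFC1 0.06, CHAF1A 0.04 and CHAF1B 0.05. Without array 3 at 250 µg/ml ORC1 gave 0.09, MCM6 0.03, RFC1 0.18 and CHAF1A 0.04. CHAF1A gave 0.11 without array 1 at 100 µg/ml and 0.13 without array 2 at 250 µg/ml, and RFC1 0.01 without the arrays numbered 3. With single arrays left out, the range was -0.14 to 0.21 for ORC4 at 100 µg/ml, and at 250 µg/ml -0.08 to 0.27 for MCM2, -0.20 to 0.52 for MCM5 and -0.00 to 0.53 for RFC1. Between the doses it was -0.62 to 0.10 for ORC1, -0.53 to 0.03 for MCM6, -0.31 to 0.18 for RFC1, -0.50 to 0.13 for CHAF1A and -0.66 to 0.05 for CHAF1B.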

Other observations

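MCM7, POLA1, PCNA, RPA3 and FEN1 were read only by probe sets that name a second gene, so their signals cannot be given to 1 gene. The probe set of MCM7, a helicase subunit, also names the microRNA genes MIR106B, MIR25 and MIR93. It read 8.37, 8.41 and 7.97 with vehicle, 8.35, 8.58 and 8.26 at 100 µg/ml and 7.61, 7.71 and 7.90 at 250 µg/ml, where every array lay below every other array of the 9. The difference from vehicle was -0.51 ± 0.15 at 250 µg/ml (SE, limma adjusted p = 0.16).

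The probe set of PCNA, the sliding clamp, also names PCNA-AS1 and read 7.75, 8.22 and 8.23 with vehicle, 9.12, 8.94 and 8.03 at 100 µg/ml and 8.22, 8.29 and 8.03 at 250 µg/ml. That of POLA1, the polymerase alpha catalytic subunit, names SCARNA23 and read 6.37, 5.21 and 6.62 with vehicle, 7.05, 7.62 and 6.57 at 100 µg/ml and 6.30, 6.25 and 6.00 at 250 µg/ml. In both, arrays 1 and 2 at 100 µg/ml were the highest. The probe set of FEN1, the flap endonuclease of Okazaki fragments, names FADS2 and read 6.59, 6.56 and 6.73 with vehicle, 7.55, 7.88 and 6.74 at 100 µg/ml and 6.89, 6.83 and 6.86 at 250 µg/ml. All its treated arrays lay above vehicle, array 3 at 100 µg/ml only just. That of RPA3, which also names UMAD1, differed by 0.11 at 100 µg/ml and -0.03 at 250 µg/ml.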
